A study of Mus musculus with 32 samples.

Results

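Gene expression in gastrocnemius muscle of mutant mice was compared with that of control mice at Zeitgeber time 18 (ZT18, 18 h after lights on), in the middle of the dark phase when mice are active and feed. Both groups were 10 weeks old and of mixed genetic background. The mutant mice had the genotype Sf1-Cre; Sirt1loxP/loxP. The labels call the other mice Control, and the series description gives them the floxed Sirt1 alleles as well, so that both groups carried loxP sites and the groups differed by the Cre transgene and the deletion together, which cannot be told apart. Sf1-Cre directs the deletion to SF1 neurons of the ventromedial hypothalamus, and where it took place was not measured here. The comparison uses 4 mutant and 4 control libraries of the 32 libraries of the series, 1 library per mouse as far as the labels show. Of the 16634 genes in the table, the 11158 with at least 1 FPKM in 4 or more of these 8 libraries were kept, and all of them could be tested. FPKM is the number of sequenced fragments scaled to transcript length and to the mapped reads of each library, as deposited, and absolute depth is unknown. Differences are mutant minus control on the log2(FPKM + 1) scale, which understates the change of genes with low levels.

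SIRT1 is a protein deacetylase that uses NAD and couples the nutritional state of a cell to its gene expression. SF1 neurons act on peripheral tissues, skeletal muscle among them, mainly through sympathetic nerves, and take part in the control of energy expenditure and glucose use. Muscle also holds a circadian clock of its own. In it the activators CLOCK and BMAL1 (the protein of Arntl) drive the Per and Cry genes, whose proteins inhibit the activators, and the REV-ERB receptors (Nr1d1, Nr1d2), which repress Arntl. The output factor DBP passes the rhythm on to metabolic genes.

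The 8 libraries were alike in most genes, but 2 of them stood apart. Over all genes tested, a library correlated with the others of its group with a mean r of 0.973 to 0.986, and the lowest value belonged to mutant library 0. That library had the lowest or highest value of the 8 in 45.6% of the genes and control library 0 in 34.1%, against 15.6% to 24% in the other libraries. Control library 0 also went against its time label in the clock genes. Both libraries had lower summed levels of fibroblast and macrophage markers than the other libraries of their group. Skeletal muscle fibre markers, which define the labelled tissue, summed to between 115546 and 147370 FPKM in mutant libraries and between 116305 and 138842 FPKM in control libraries, and no member was at 0 in any of them. Main results are therefore also given without these 2 libraries.

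Nr6a1 was the gene that differed at ZT18 after adjustment over all genes, and it was higher in mutants. Nr6a1, which encodes an orphan nuclear receptor known from early embryos and germ cells (chromosome 2, 38723374 to 38926461 in mm10, XLOC_012290), was at 2.31, 2.37, 2.95 and 2.93 FPKM in mutant libraries, against 1.49, 1.23, 1.15 and 1.49 FPKM in control libraries. Every mutant value lay above every control value. The difference was 0.63 with a standard error of 0.10 (limma, Benjamini-Hochberg adjusted p = 0.00374), and 1 of 11158 genes, or 0.00896%, passed this threshold. Without control library 0 the adjusted p was 0.00816, and without mutant library 0 it was 0.00458. Leaving out control library 3 or mutant library 1 gave 0.00852 and 0.00724. Closer to the threshold of 0.05 were the fits without control library 1 or 2 (0.0341 and 0.0433) and without mutant library 2 or 3 (0.0460 and 0.0442). A fit to the 8 ZT18 libraries alone, which estimates the spread from fewer mice, gave the same difference with an adjusted p of 0.288. The difference of Nr6a1 was also present at the other times. It was 0.81 at ZT0, 0.71 at ZT6 and 0.74 at ZT12, and the ZT18 difference minus the mean of these 3 was -0.12 (unadjusted p = 0.296).

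RefSeq (GRCm38.p6, the assembly of mm10) lists 2 transcription start sites for Nr6a1 on the minus strand, and the 250 bases before each are shown because Nr6a1 was the called gene. The first, chr2:38926462-38926711, adjoins the end of the gene in the deposited table, and the second, chr2:38784516-38784765, lies inside the gene. Capitals mark AGGTCA, the core site recognised by many nuclear receptors, on either strand. It was found 2 times before the second start, beginning 91 and 45 bases upstream, and not in these letters before the first, and it occurs in 14% of all 32851 RefSeq promoter windows of this length.
Nr6a1 start 1: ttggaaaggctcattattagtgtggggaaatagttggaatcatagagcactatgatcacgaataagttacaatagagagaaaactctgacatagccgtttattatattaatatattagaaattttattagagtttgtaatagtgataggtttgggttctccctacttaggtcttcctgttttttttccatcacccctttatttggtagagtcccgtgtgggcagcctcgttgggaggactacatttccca
Nr6a1 start 2: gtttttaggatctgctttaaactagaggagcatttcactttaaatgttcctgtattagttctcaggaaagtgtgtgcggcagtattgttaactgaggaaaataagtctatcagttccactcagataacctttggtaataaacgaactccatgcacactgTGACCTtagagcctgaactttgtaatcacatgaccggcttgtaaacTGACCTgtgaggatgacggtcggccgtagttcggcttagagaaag

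Some other genes of chromosome 2 around Nr6a1 had separated values. Within 20 Mb on either side, 12 of 221 tested genes, or 5.43%, had an unadjusted p under 0.05, against 2.85% of all genes tested. Of the 12, 5 were higher and 7 lower in mutants, with Nr6a1 among the 5. Where no gene differs, a threshold of 0.05 by itself passes a share of about 0.05. The window was drawn around the called gene, which is counted in it. Whether its share differs from that of all genes was not tested. Gm13490 (51656966 to 51732009), a predicted gene, was at 2.46, 0.238, 2.65 and 1.68 FPKM in mutant libraries, against 0.0251, 0, 0.111 and 0 FPKM in control libraries. All mutant values lay above all control values, but the gene reached 1 FPKM in only 3 of the 8 libraries and so was not among the genes tested. With no filter on low values it had an adjusted p of 0.0077 in limma. Arl5a (52397951 to 52424874), which encodes a small GTPase of the Golgi, was at 12.6, 8.52, 12.9 and 11.6 FPKM in mutant libraries, against 8.97, 9.06, 8.31 and 9.38 FPKM in control libraries. Mutant library 1 lay among the control values, and the difference of 0.31 with a standard error of 0.11 did not pass the adjusted test (unadjusted p = 0.010).

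**Figure D1:**
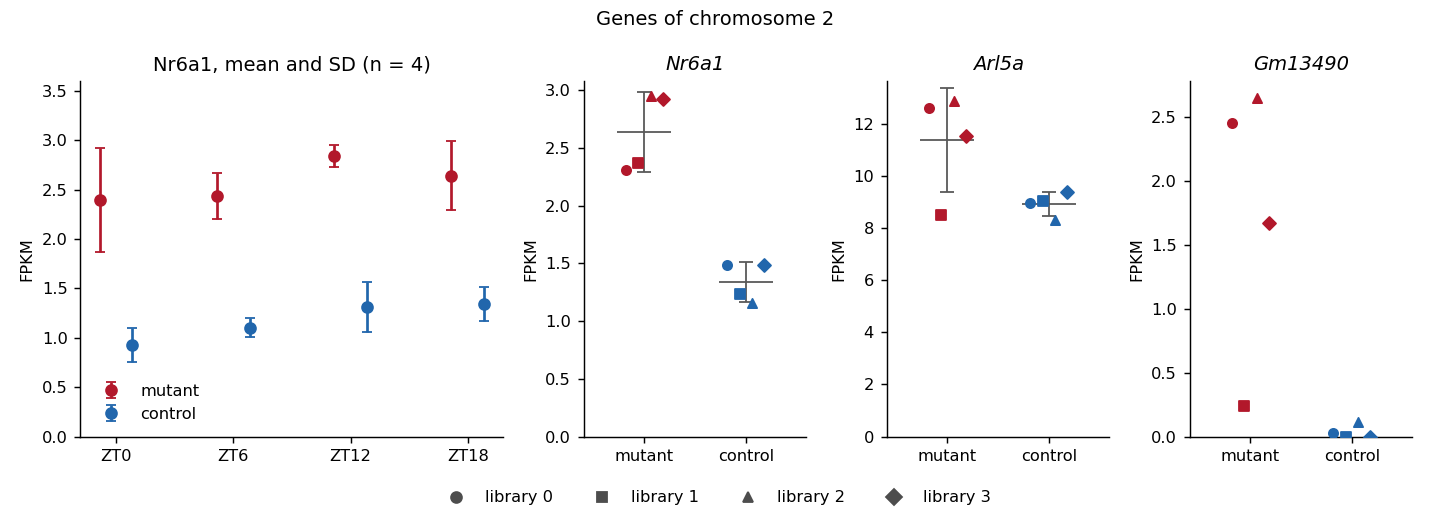
FPKM of Nr6a1 at the 4 Zeitgeber times (mean and SD, n = 4 per group) and of Nr6a1, Arl5a and Gm13490 in each ZT18 library, with mutants in red on the left and controls in blue on the right. Horizontal bars with whiskers in the Nr6a1 and Arl5a library panels are mean and SD, and the marker shape gives the library number. Nr6a1 mutant values sit between 2.31 and 2.95 FPKM at ZT18 and control values between 1.15 and 1.49 FPKM.

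Acvr1 (58446438 to 58566828), which encodes a type I receptor for bone morphogenetic proteins, lies in the same window and had separated values at ZT18. It was at 12.2, 11.7, 12.3 and 11.9 FPKM in mutant libraries, against 9.07, 8.62, 9.66 and 8.40 FPKM in control libraries. The groups did not overlap, with a difference of 0.39 and a standard error of 0.13, which missed the adjusted threshold (adjusted p = 0.999, limma). At ZT0, ZT6 and ZT12 the Acvr1 differences were 0.06, 0.03 and 0.07. The departure of its ZT18 difference from these did not pass the adjusted test, as for every gene tested. Nsmf, Ccbl1 and Lcn2 (the iron-binding lipocalin 2) had all mutant values below all control values, with differences of -0.24, -0.29 and -0.70. Otud1, a deubiquitinase, and Rnd3, a small GTPase, had differences of 0.73 and 0.25 and overlapping groups.

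Sirt1 itself was expressed in the muscle of both groups. Sirt1 (chromosome 10, 63319005 to 63339035) was at 5.70, 6.00, 5.24 and 6.32 FPKM in mutant libraries, against 5.35, 5.44, 5.92 and 5.83 FPKM in control libraries. The groups overlapped, and the difference was 0.04 (exact permutation test over 70 assignments, 2-sided p = 0.571, smallest possible p = 0.0286). The level in muscle does not check a deletion directed at neurons. Of 19 tested genes for sirtuins and NAD metabolism, 9 had a higher and 10 a lower mean in mutants, with a median difference of -0.01. Nmrk2, a nicotinamide riboside kinase of muscle, was at 16.4, 10.4, 24.7 and 7.98 FPKM in mutant libraries, against 47.9, 13.1, 16.6 and 39.4 FPKM in control libraries, with wide spread in both groups.

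Apart from Nr6a1, no gene passed the adjusted threshold, and few genes were separated before adjustment. In limma, 318 genes (2.85%) had an unadjusted p under 0.05, of which 96 (0.86%) were higher and 222 (1.99%) lower in mutants. A threshold of 0.05 passes a share of about 0.05 where no gene differs, so 2.85% is no excess. The same 11158 genes gave 972 such genes at ZT0, 1157 at ZT6 and 2018 at ZT12, and the median absolute difference was 0.0726 at ZT18, against 0.103, 0.110 and 0.135 at ZT0, ZT6 and ZT12. Whether these counts differ between times was not tested. Over all genes the mean was lower in mutants for 57.1%, with a median difference of -0.02. The groups did not overlap in 273 genes (2.45%), with all mutant values above all control values in 78 (0.699%) and below them in 195 (1.75%). Of the 70 ways to assign the 8 libraries to the groups, a share of 0.0286 separates the values of a gene. The 2.45% is thus no excess either. Leaving out control library 0 gave 175 genes above (1.57%) and 475 below (4.26%), and leaving out mutant library 0 gave 442 above (3.96%) and 445 below (3.99%). Leaving out a library cannot undo a separation, so these counts could not fall, and their rise alone shows nothing about the genes. Lower means still outnumbered higher means in both fits, at 6608 against 4548 without control library 0 and 6029 against 5129 without mutant library 0.

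Among genes of at least 5 FPKM on average that did not overlap, the 10 with the smallest p in the higher direction were Hnrnph1, Heca, Acvr1, Acad11, Inmt, Ets1, Tgoln1, Tbl1x, Itpkb and Kdr. None passed the adjusted test, and each had an adjusted p of 0.999. Inmt, which encodes an enzyme that methylates indole amines, was at 32, 31.8, 31.5 and 30.3 FPKM in mutant libraries, against 11.8, 10.1, 24.8 and 25.7 FPKM in control libraries. The mutants were close together, while control libraries 0 and 1 were lower than control libraries 2 and 3, and the difference was 0.87 with a standard error of 0.30. Hnrnph1, a splicing factor, was at 99.4, 75.0, 73.9 and 74.1 FPKM in mutant libraries, against 62.8, 55.4, 71.6 and 65.7 FPKM in control libraries, so that mutant library 0 stood above all others. The vascular growth factor receptor gene Kdr was at 12.3, 9.62, 12.1 and 10.1 FPKM in mutant libraries, against 9.04, 8.89, 7.32 and 7.78 FPKM in control libraries, a narrow separation with a difference of 0.37 and a standard error of 0.14. Ets1, a transcription factor of endothelial and immune cells, was at 7.87, 10.5, 9.15 and 8.73 FPKM in mutant libraries, against 5.92, 6.31, 5.48 and 6.05 FPKM in control libraries. The other 5 were a trans-Golgi protein (Tgoln1), an acyl-CoA dehydrogenase (Acad11), a subunit of a nuclear receptor corepressor complex (Tbl1x), an inositol trisphosphate kinase (Itpkb) and Heca, with differences from 0.23 to 0.42.

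In the lower direction the corresponding 10 genes were Ece2, Nrep, Dusp23, Nubpl, Cbx7, Itfg2, Ift27, Col5a3, Gm15417 and Casq2, again each with an adjusted p of 0.999. Casq2, the calsequestrin of slow and cardiac muscle, which stores calcium in the sarcoplasmic reticulum, was at 7.57, 9.01, 7.86 and 8.75 FPKM in mutant libraries, against 11.5, 12.5, 11.2 and 13 FPKM in control libraries. The difference was -0.49 with a standard error of 0.18. Its fast fibre counterpart Casq1 was at 1660.4, 1729, 1882 and 1929 FPKM in mutant libraries, against 1982, 2091, 2598 and 2048 FPKM in control libraries, and the groups of Casq1 did not overlap either. Dusp23, a small phosphatase, was at 16.6, 11.4, 12.3 and 19.9 FPKM in mutant libraries, against 20.3, 28.7, 26.1 and 21.3 FPKM in control libraries, the largest of these 10 differences at -0.67 with a standard error of 0.20. Nrep, named for its link to neuronal regeneration, was at 68.1, 69.5, 87.7 and 90.4 FPKM in mutant libraries, against 107, 140, 111 and 128 FPKM in control libraries. The remaining genes included an assembly factor of respiratory complex I (Nubpl), a Polycomb protein (Cbx7), a transport protein of cilia (Ift27) and a fibrillar collagen (Col5a3).

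**Figure D2:**
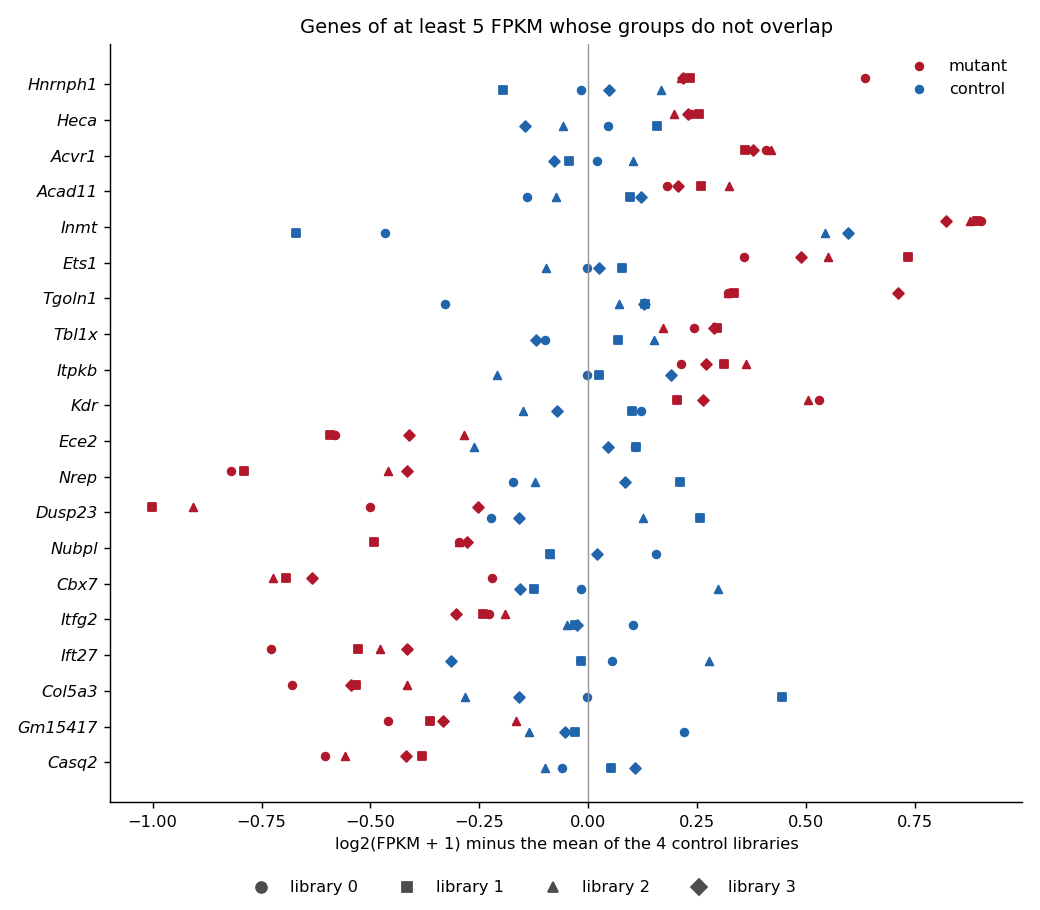
Values of the 20 genes named as separated, on the log2(FPKM + 1) scale relative to the mean of the 4 control libraries, with mutant libraries in red above control libraries in blue for each gene and the marker shape giving the library number. The 10 upper genes have all mutant values above all control values and the 10 lower genes all below, and mutant library 0 of Hnrnph1 lies apart from the other mutants.

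Plxna2, a semaphorin receptor, had the smallest unadjusted p of all genes after Nr6a1 and 2010204K13Rik. It was at 1.98, 1.83, 1.95 and 2.02 FPKM in mutant libraries, against 2.86, 3.79, 2.45 and 2.70 FPKM in control libraries. All mutant values lay below all control values, and the difference was -0.41 with a standard error of 0.10 (adjusted p = 0.669, limma). Rian, an imprinted noncoding RNA, was chosen after its values were seen because it passed the test without control library 0. It was at 2.41, 4.18, 3.82 and 4.01 FPKM in mutant libraries, against 3.09, 6.26, 9.22 and 7.70 FPKM in control libraries. Control library 0 lay among the mutants, and without it the Rian difference was -0.93 (adjusted p = 0.0196), against -0.66 with all 8 libraries (adjusted p = 0.999).

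No gene had a genotype difference at ZT18 that departed from the mean difference at ZT0, ZT6 and ZT12 after adjustment. In limma, 307 genes (2.75%) had an unadjusted p under 0.05 and 0 passed the adjusted threshold. The smallest adjusted p, 0.359, belonged to Heca, the mouse homolog of Drosophila headcase. Heca was at 9.07, 9.19, 8.79 and 9.02 FPKM in mutant libraries, against 7.82, 8.53, 7.21 and 6.72 FPKM in control libraries at ZT18. Its difference was 0.23 at ZT18 and -0.39, -0.10 and -0.11 at ZT0, ZT6 and ZT12. Skil, a repressor of SMAD signalling, and Fam212a were next among genes with a higher ZT18 value, with ZT18 differences of 0.46 and 0.41. Focad, 2010204K13Rik and the entry BC021785,G630090E17Rik had lower values, with ZT18 differences of -0.20, -1.13 and -0.38.

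The clock genes did not separate the genotypes at ZT18, but they set control library 0 apart. Arntl was at 1.48, 1.51, 1.52 and 1.13 FPKM in mutant libraries, against 8.84, 3.53, 1.12 and 1.51 FPKM in control libraries. Control library 0 was several times above all mutants, library 1 was between, and the other two controls lay at the mutant level. The Arntl difference was -0.71 with a standard error of 0.28 (unadjusted p = 0.0184, adjusted p = 0.999), and -0.27 without control library 0. Dbp was lowest in control libraries 0 and 1, with 74.8, 63.9, 67.8 and 72.1 FPKM in mutant libraries, against 23.5, 47.6, 84.1 and 95.8 FPKM in control libraries. Control libraries 2 and 3 were above all mutants in Dbp, so that the mutant values lay inside the range of the controls.

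The Arntl repressor gene Nr1d1 was at 19.2, 19.8, 23.0 and 17.4 FPKM in mutant libraries, against 41.0, 26.1, 27.9 and 22.6 FPKM in control libraries. The groups of Nr1d1 overlapped only in mutant library 2 and control library 3, and control library 0 was the highest. Ciart, a repressor of CLOCK and BMAL1, was at 3.44, 4.56, 4.21 and 3.90 FPKM in mutant libraries, against 2.06, 3.88, 7.34 and 7.46 FPKM in control libraries. Per3 was at 8.77, 9.90, 10.2 and 10.1 FPKM in mutant libraries, against 5.69, 8.13, 12.8 and 13.9 FPKM in control libraries. In both genes the mutants were close together within the spread of the controls. Per1 and Per2 overlapped between groups, with differences of -0.10 and 0.14 and standard errors of 0.31 and 0.26, and Clock had a difference of -0.18.

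**Figure D3:**
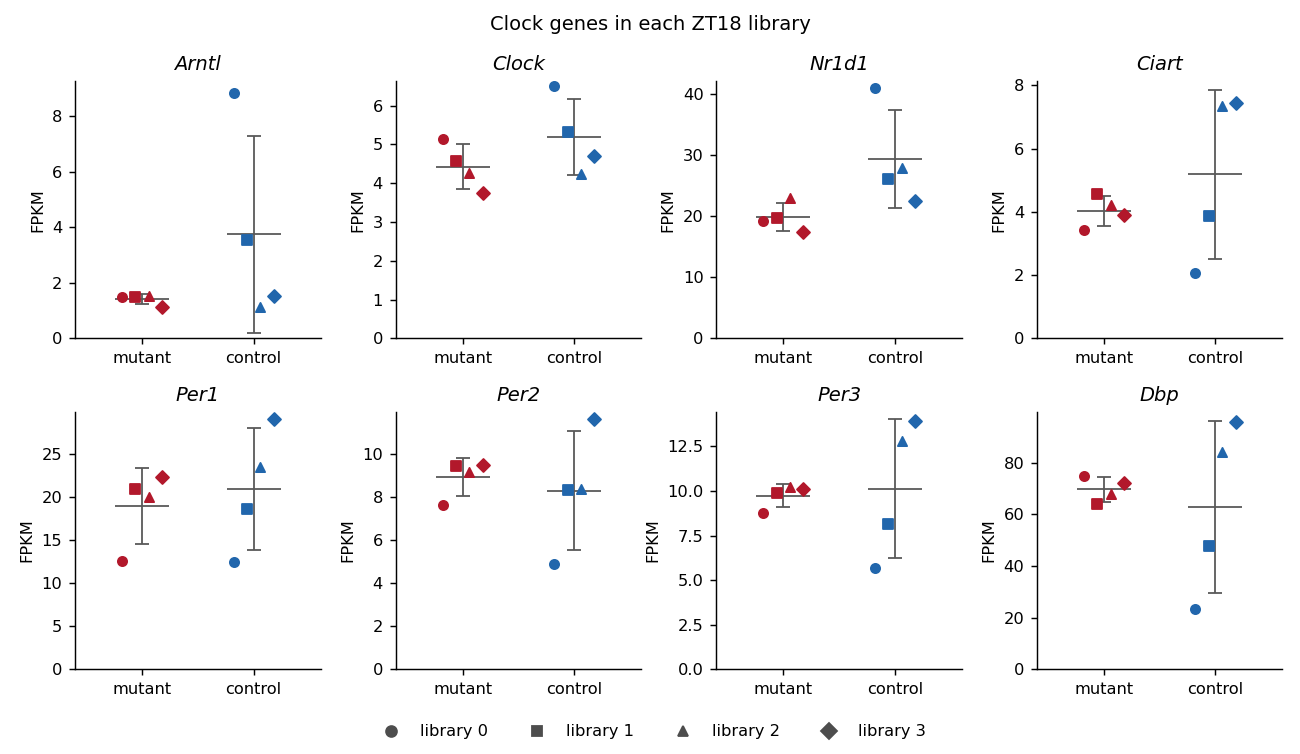
FPKM of 8 clock genes in each ZT18 library, mutants on the left in red and controls on the right in blue, with mean and SD (n = 4 per group) as bars and the marker shape giving the library number. Control library 0 has the highest Arntl, Clock and Nr1d1 and the lowest Ciart, Per2, Per3 and Dbp of the 8 libraries.

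Ciart and Per3 have clock elements close to their start, and the 250 bases before each start are shown as examples of these. Both genes were lowest in control library 0, as were Per2 and Dbp. Whether the elements bear on the levels in that library was not tested. The Ciart sequence is chr3:95882229-95882478 and the Per3 sequence chr4:151044666-151044915, both on the minus strand of GRCm38.p6 from RefSeq. Capitals in Ciart mark the E-box CACGTG, the site of CLOCK and BMAL1, found 3 times, beginning 116, 58 and 44 bases before the start. Capitals in Per3 mark the D-box TTATGTAA, the site of DBP and its relatives, found 2 times, beginning 205 and 158 bases before the start. Both strands were searched, and the E-box occurs in 6.02% and the D-box in 0.819% of all 32851 windows of this length. Of the 24 clock genes, 18 had a window, of which 6 held the E-box and 1, Per3, the D-box.
Ciart: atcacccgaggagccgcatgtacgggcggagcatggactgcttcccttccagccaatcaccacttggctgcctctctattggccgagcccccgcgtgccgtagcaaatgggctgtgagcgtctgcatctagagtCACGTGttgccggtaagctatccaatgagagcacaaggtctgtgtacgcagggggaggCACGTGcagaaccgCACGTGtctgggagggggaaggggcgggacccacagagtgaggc
Per3: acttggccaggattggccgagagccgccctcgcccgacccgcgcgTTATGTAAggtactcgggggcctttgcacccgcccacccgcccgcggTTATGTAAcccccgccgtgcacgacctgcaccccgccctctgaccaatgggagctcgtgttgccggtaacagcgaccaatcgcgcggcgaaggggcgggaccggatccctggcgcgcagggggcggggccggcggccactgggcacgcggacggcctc

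Taken over 24 clock genes, the expression profile of control library 0 had an r of -0.07 with the mean of the other ZT18 libraries, where the other 7 ZT18 libraries had an r between 0.90 and 0.98. Its highest r with any time was 0.11, with ZT6. In the other 31 libraries of the series, r with the library's own time ran from 0.664 to 0.981, and 29 of the 31 had their highest r with their own time. These correlations are across genes within a library, which are not independent, and describe the library without a test. Control library 0 was the lowest or highest of the 8 libraries in 18 of the 24 genes, against 34.1% of all genes tested.

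**Figure D4:**
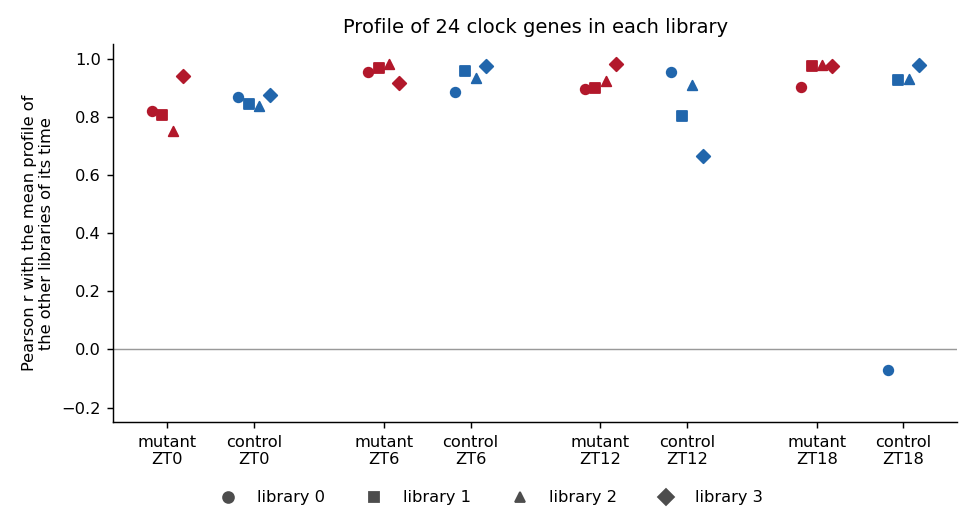
Pearson correlation of the profile of 24 clock genes in each of the 32 libraries with the mean profile of the other libraries of its Zeitgeber time, mutants in red left of controls in blue at each time, and the marker shape giving the library number. Control library 0 at ZT18 lies at -0.07, and the lowest of the others is at 0.664.

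The mutant libraries varied less than the control libraries in the clock genes. The median SD of the 24 genes on the log2 scale was 0.146 in mutants and 0.321 in controls at ZT18, while over all genes tested it was 0.145 in mutants and 0.137 in controls. The SD was larger in controls in 20 of the 24 genes, against 46.6% of all genes tested. Without control library 0 the control median was 0.157, and 14 of the 24 genes had the larger SD in controls. Across the 8 groups of the series this median ran from 0.142 to 0.334. The mutant range lay inside the control range in 14 of the 24 genes, against 21.3% of all genes.

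By list, both tested activators had a lower mean in mutants, 3 of 6 repressors had a higher and 3 a lower mean, and 9 of 12 output and kinase genes had a higher mean, with median differences of -0.44, -0.01 and 0.03. Without control library 0 the median of the activators was -0.18, the repressors were 1 higher and 5 lower and the output genes 4 higher and 8 lower. Without mutant library 0 the repressors were 5 higher and 1 lower. The 4 tested genes of the REV-ERB and ROR receptors were 1 higher and 3 lower. No clock gene passed the adjusted test.

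Genes of lipid synthesis and storage had higher means in mutants more often than genes at large. Of 33 tested members, 26 had a higher and 7 a lower mean, with a median of 0.22, against 42.9% higher and a median of -0.02 over all genes tested. None passed the adjusted test. Scd1, the stearoyl-CoA desaturase that makes monounsaturated fatty acids, was at 71.3, 222, 526 and 834 FPKM in mutant libraries, against 41.8, 345, 39.3 and 78.0 FPKM in control libraries. Fasn, the fatty acid synthase, was at 5.25, 34.4, 89.9 and 189 FPKM in mutant libraries, against 3.79, 68.8, 4.64 and 6.51 FPKM in control libraries. In both genes mutant library 0 was the lowest mutant and lay below control libraries 1 and 3. Control library 1 was the only control among the other mutants. G0s2, an inhibitor of the main triglyceride lipase, was at 77.3, 33.8, 56.3 and 75.7 FPKM in mutant libraries, against 49.6, 58.4, 18.9 and 27.7 FPKM in control libraries (difference 0.70, unadjusted p = 0.0301).

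Adipocyte markers moved with these libraries. Of 18 tested markers, 17 had a higher mean in mutants, with a median of 0.71, and all 20 markers in the table summed to 1727, 2666, 2636 and 4851 FPKM in mutant libraries, against 1712, 2848, 2160 and 2324 FPKM in control libraries. No adipocyte marker was at 0 in any library, and the groups overlapped in every tested one. Plin1, which coats the lipid droplet of fat cells, was at 10.9, 16.4, 33.2 and 63.2 FPKM in mutant libraries, against 4.76, 28.4, 4.19 and 8.44 FPKM in control libraries. Lep, the hormone leptin, was at 5.45, 3.02, 4.83 and 4.65 FPKM in mutant libraries, against 1.81, 3.53, 1.21 and 1.29 FPKM in control libraries. Adipoq, the hormone adiponectin, was at 22.9, 26.8, 38.6 and 85.8 FPKM in mutant libraries, against 11.9, 43.3, 15.4 and 25 FPKM in control libraries. Control library 1 lay among the mutants in all 3 genes. Cidec, Lipe, Thrsp and Plin4 stand in both the lipid and the adipocyte list, and the part of fat cells in the lipid genes was not tested. In bulk muscle, a change in the number of cells of a type and a change in RNA per cell cannot be told apart.

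Genes of fatty acid uptake and oxidation were close to balance, with 18 of 31 higher and 13 lower and a median of 0.03, and 22 higher and 9 lower with a median of 0.09 without mutant library 0. None passed the adjusted test. Nuclear genes of oxidative phosphorylation had a lower mean in mutants in 57 of 77, with a median of -0.05, against 57.1% lower over all genes tested. Without control library 0 it was 46 of 77 with a median of -0.02, where 6608 of all 11156 genes in that fit were lower, and without mutant library 0 it was 61 of 77. The smallest p values belonged to Cox5b, a subunit of cytochrome oxidase, with a difference of -0.26 (-0.10 without mutant library 0, unadjusted p = 0.378), and Sdhc, a subunit of succinate dehydrogenase, with -0.25.

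Glucose metabolism showed no called gene and no list far from the median of all genes. Glycolysis had 7 higher and 16 lower members (median -0.05), glucose uptake and phosphorylation 7 and 5 (0.02), glycogen 7 and 11 (-0.03), insulin signalling 8 and 18 (-0.05) and the tricarboxylic acid cycle 6 and 10 (-0.03). Tbc1d4, the insulin-regulated brake on glucose transporter traffic, was at 3.05, 2.84, 3.22 and 3.59 FPKM in mutant libraries, against 3.75, 3.71, 3.95 and 3.84 FPKM in control libraries, with no overlap and a difference of -0.21 (unadjusted p = 0.0713). Ppp1r3c, a glycogen-targeting subunit of protein phosphatase 1, was at 163, 262, 194 and 197 FPKM in mutant libraries, against 470, 453, 146 and 256 FPKM in control libraries. Control libraries 0 and 1 were thus above every other library in Ppp1r3c. Pdk4, the kinase that shuts glucose carbon out of mitochondria, was at 71.2, 275, 218 and 294 FPKM in mutant libraries, against 312, 276, 254 and 434 FPKM in control libraries, with mutant library 0 the lowest.

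Of 24 glucocorticoid-responsive genes, 4 had a higher and 20 a lower mean in mutants, with a median of -0.12. Without mutant library 0 they were 12 and 12 with a median of 0.00, and without control library 0 they were 3 and 21 with a median of -0.25. Zbtb16, a zinc finger transcription factor induced by glucocorticoids, was at 9.61, 10.0, 10.4 and 8.12 FPKM in mutant libraries, against 17.3, 16.2, 10.0 and 16 FPKM in control libraries (difference -0.57, standard error 0.19, adjusted p = 0.999). Control library 2 lay at the mutant level of Zbtb16. Lcn2 was at 1.27, 1.33, 1.16 and 0.777 FPKM in mutant libraries, against 1.59, 3.39, 2.31 and 2.80 FPKM in control libraries, with no overlap. FoxO and atrophy genes were 9 higher and 15 lower with a median of -0.05. Mstn, the muscle growth inhibitor myostatin, was at 152, 101, 93.2 and 79.9 FPKM in mutant libraries, against 84.5, 75.0, 79.5 and 74.4 FPKM in control libraries, with mutant library 0 again the farthest out.

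No listed gene on the path from sympathetic nerve to muscle passed the adjusted test. Of 21 genes for adrenergic signalling and the cAMP response, 10 had a higher and 11 a lower mean, with a median of 0.00. Without mutant library 0 they were 12 higher and 9 lower, and without control library 0 they were 9 higher and 12 lower. Sik1, a kinase induced by cAMP, was at 4.34, 8.84, 10.2 and 11.6 FPKM in mutant libraries, against 3.65, 5.28, 6.86 and 8.06 FPKM in control libraries. The Sik1 difference was 0.73 without mutant library 0 (limma, unadjusted p = 0.00309) and 0.28 without control library 0 (unadjusted p = 0.263). Neither passed the adjusted test. Creb1, which encodes the cAMP-responsive factor CREB, had a difference of 0.15. Genes of nerve contact and denervation were 4 higher and 13 lower with a median of -0.03, and 8 higher and 9 lower with a median of -0.01 without control library 0. Ncam1, a surface protein of denervated fibres, was below the controls in every mutant with a difference of -0.15.

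Fibre type genes had more lower than higher means in mutants, in numbers that moved with the libraries used. Of 22 slow fibre genes 4 had a higher and 18 a lower mean, with a median of -0.10, and Casq2 was the member with separated groups. Without control library 0 the count was 9 and 13 with a median of -0.03, and without mutant library 0 it was 9 and 13 with a median of -0.11. Of 22 fast fibre genes 9 had a higher and 13 a lower mean, with a median of -0.01. Without mutant library 0 the fast list had 2 higher and 20 lower means with a median of -0.06, and without control library 0 it had 10 and 12 with a median of -0.00. Atp2a1, the calcium pump of fast fibres, was listed at exactly 0 in 2 mutant and 1 control libraries, and these values were treated as missing.

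Collagen and matrix genes had lower means in mutants in 28 of 33 tested members, with a median of -0.21. This rested in part on which libraries were used. Without control library 0, 32 of 33 were lower with a median of -0.42 and 14 had an unadjusted p under 0.05, against 3.16% of all genes in that fit. Without mutant library 0, 21 of 33 were lower with a median of -0.11. Their summed level was 1217, 1805, 2225 and 1855 FPKM in mutant libraries, against 913, 2696, 2917 and 2422 FPKM in control libraries. The 3 other controls were thus above every mutant, and control library 0 was below. Fibroblast markers were likewise lowest in control library 0, with sums of 1056, 1509, 1589 and 1392 FPKM in mutant libraries, against 742, 1545, 1684 and 1779 FPKM in control libraries. Col1a1, the main fibrillar collagen, was at 82.8, 128, 262 and 199 FPKM in mutant libraries, against 63.1, 360, 431 and 254 FPKM in control libraries. Col5a3 was at 3.57, 4.07, 4.50 and 4.03 FPKM in mutant libraries, against 6.32, 8.98, 5.03 and 5.57 FPKM in control libraries, the collagen with separated groups. The part of fibroblast content in these genes was not tested.

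Among the stress responses, the immediate early genes had a higher mean in 16 of 22 (median 0.15) and the interferon response genes in 20 of 24 (median 0.18). For immediate early genes the count was 21 of 22 without mutant library 0 and 12 of 22 without control library 0. Ier5 and Jun, both induced within minutes of a stimulus, had differences of 0.34 each (unadjusted p = 0.0140 and 0.0349). Heat shock genes were balanced at 15 higher and 14 lower, and were 10 higher and 19 lower without mutant library 0. Dnajb1, a co-chaperone of HSP70, was at 4.03, 4.17, 5.89 and 5.36 FPKM in mutant libraries, against 3.33, 3.16, 3.78 and 3.52 FPKM in control libraries, with no overlap. Hspa8, the constitutive HSP70, was at 35.4, 38.6, 41.6 and 36.5 FPKM in mutant libraries, against 83.5, 87.1, 42.4 and 38.4 FPKM in control libraries. As with Ppp1r3c, control libraries 0 and 1 were apart from all others in Hspa8.

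**Figure D5:**
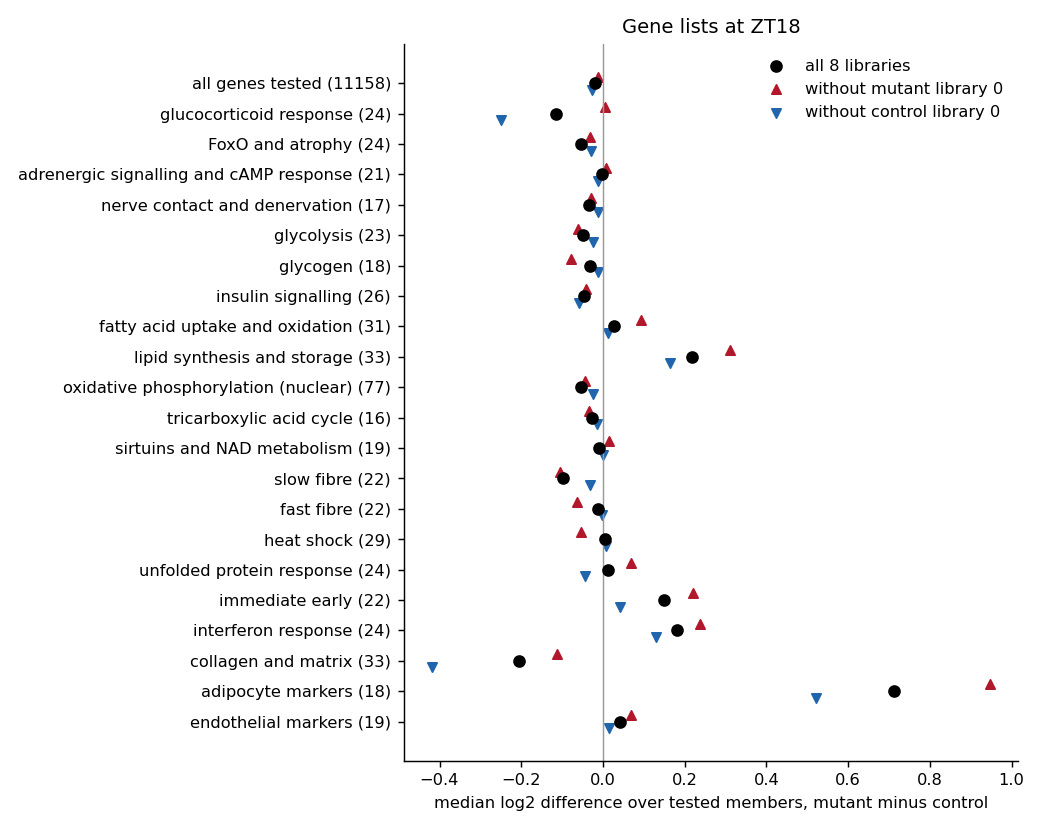
Median difference, mutant minus control on the log2(FPKM + 1) scale, over the tested members of each list, with the number tested in brackets and all genes tested on top. Black points use all 8 libraries, red triangles leave out mutant library 0 and blue triangles leave out control library 0, so that a reader sees the collagen median at -0.42 without control library 0 and -0.11 without mutant library 0.

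Lymphocyte genes were high in 3 of the 4 mutant libraries. The 23 markers in the table summed to 7.37, 101, 61.5 and 88.5 FPKM in mutant libraries, against 8.26, 16.5, 12.7 and 15.6 FPKM in control libraries. Mutant library 0 was below every control. Only 5 of the 23 passed the filter, and a marker that passed through 3 high mutants had to differ, so no count over these is given. Of the 23, 13 were at 0 in at least 1 library. Ptprc, the antigen CD45 of all white blood cells, was at 0.859, 7.82, 5.47 and 6.19 FPKM in mutant libraries, against 0.642, 1.58, 1.13 and 1.86 FPKM in control libraries. Cd3e, a subunit of the T cell receptor complex, was at 1.02, 2.54, 3.31 and 2.17 FPKM in mutant libraries, against 0.730, 0.772, 1.21 and 1.65 FPKM in control libraries. Of 8 lymph node stroma genes in the table, 6 had a higher mean in mutants, and of the 2 that were tested 1 was higher and 1 lower. Glycam1, a product of lymph node vessels, was at 0, 8.02, 4.42 and 9.66 FPKM in mutant libraries and listed at 0 in all control libraries. Cxcl13, the chemokine that draws B cells, was at 0.996, 10.3, 5.99 and 6.96 FPKM in mutant libraries, against 0.479, 1.30, 1.02 and 1.69 FPKM in control libraries. Glycam1 and Cxcl13 were chosen after their values were seen. High values were not confined to mutants in the series. Control libraries at ZT12 ran from 0.745 to 17.0 FPKM in Ptprc and from 0.235 to 24.8 FPKM in Cxcl13. Control libraries at ZT6 ran from 1.11 to 4.63 FPKM in Ptprc and from 0.346 to 2.51 FPKM in Cxcl13. Lyve1, a receptor of lymphatic vessels, was at 4.94, 11.7, 9.16 and 7.55 FPKM in mutant libraries, against 4.996, 13.2, 9.01 and 13.6 FPKM in control libraries, and its groups overlapped. The interferon list includes genes that lymphocytes also express, such as H2-K1, which was at 40.9, 77.1, 70.4 and 108 FPKM in mutant libraries, against 48.7, 54.0, 43.8 and 56.1 FPKM in control libraries, and the part of lymphocytes in that list was not tested. With the lymphocyte and adipocyte scores as covariates, Nr6a1 stayed the called gene.

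Other cell types gave overlapping sums. Endothelial markers had a higher mean in 14 of 19 tested members, with a median of 0.04, and summed to 424 to 540 FPKM in mutant libraries, against 450 to 574 FPKM in control libraries. Macrophage markers summed to 130 to 264 FPKM in mutant libraries, against 121 to 292 FPKM in control libraries, with library 0 the lowest of each group. The tendon, smooth muscle, nerve, satellite cell and erythrocyte markers overlapped between groups as well.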

How the data were processed

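RNA was measured by sequencing of stranded mRNA libraries from gastrocnemius muscle, in 4 pools of 8 samples per the labels' protocols. The pool of each sample is not known here, so pools could not enter the model. The values are FPKM that the authors computed for each gene in each library and deposited as 1 table. The build, mm10, comes from the submitters' processing notes. Aligner, quantifier and annotation: not given in the sources used here. FPKM holds no read counts, so depth is unknown and no count model was used. Columns were assigned to groups by genotype and time, and their library numbers match no label.

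An exact 0 was set to missing in 17 genes with a median of at least 10 FPKM and a minimum of at least 1 FPKM among nonzero values, 14 of which had zeros at ZT18. A linear model with 1 mean for each of 8 groups was fitted to log2(FPKM + 1) of all 32 libraries with limma 3.58.1 in R 4.3.3 (trended prior, 24 residual degrees of freedom). P-values were 2-sided and adjusted after Benjamini and Hochberg over all genes tested (called if under 0.05), and measure the spread between libraries. Sirt1 was tested by an exact permutation test. Procedures were tested on simulated data. The comparison, the gene lists and the named genes were chosen with earlier results of these data known. Named genes were the called genes, the 10 smallest p in each direction among separated genes of at least 5 FPKM, the 6 with the smallest p for a departure of ZT18 from the other times, the 2 smallest p of each list, of which the text gives a part, and genes around Nr6a1. Alternatives changed the pseudocount, filter, zeros, scaling, weights, prior, covariates and libraries. Promoter sequences were copied from RefSeq. Some genes are not reported here.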

Additional observations from a re-analysis of the deposited data

Results flagged for a closer look

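Single libraries lay far from the other 3 of their group in 17 of 184 checks over genes, marker sums and clock profiles, by a gap to the nearest library of more than 0.829 of the group's range. Chance gives about 1 in 20.

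Mutant library 0 was the outlying library for Hnrnph1 (99.4 FPKM, the others 73.9 to 75.0), Cbx7 (8.11, the others 5.43 to 5.84), Per2 (7.63, the others 9.17 to 9.48), Cox5b (34.7, the others 52.7 to 56.1), summed skeletal muscle fibre markers (147370, the others 115546 to 118240) and the correlation of its clock profile with ZT18 (0.903, the others 0.974 to 0.977). Control library 0 was outlying for Tgoln1 (12.8 FPKM, the others 17.1 to 17.9), Itfg2 (6.20, the others 5.48 to 5.58) and the correlation of its clock profile with ZT18 (-0.0695, the others 0.926 to 0.978).

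Other libraries were outlying for 1 result or a few. They were mutant library 3 for Tgoln1 (27.2 FPKM) and Arntl (1.13 FPKM), mutant library 1 for Nubpl (4.73 FPKM) and mutant library 2 for summed Schwann cell and nerve markers (192 FPKM). Among controls they were library 1 for Scd1 (345 FPKM), library 3 for Creb1 (5.29 FPKM) and summed neutrophil markers (43.6 FPKM, the others 0.936 to 6.04), and library 2 for Dach2 (1.37 FPKM). The reasons were not tested.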

How the results depend on the processing

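Of the calls at ZT18, the count of 1 became 2 with no filter on low values (Gm13490 added), 2 with array weights (Fam212a added, adjusted p = 0.0113), 0 among genes with a mean of at least 5 FPKM, which leaves out Nr6a1, and 0 in the ZT18 libraries without control library 0, a setting chosen after seeing the data. Leaving out each library gave 1 to 2 calls, with Rian added without control library 0. The fit to the ZT18 libraries alone called 1 entry, Mir8097,Rnf19a, and not Nr6a1. The count of 0 genes whose ZT18 difference departed from the other times became 2 with array weights (Fam212a and Heca, adjusted p = 0.00803 and 0.0410). Genes without overlap numbered 171 of 7152 at a mean of at least 5 FPKM. Sirt1 kept its direction, from 0.00144 to 0.0785 over libraries left out.

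Among single genes, 15 values changed direction, and none of these genes was called. Over libraries left out, the difference ran from -0.48 to 0.0046 for Ciart, -0.32 to 0.073 for Per1, -0.061 to 0.31 for Per2, -0.20 to 0.18 for Per3 and -0.063 to 0.60 for Dbp. In the ZT18 libraries without control library 0 it was -0.061 for Per2, -0.20 for Per3 and -0.063 for Dbp. Per3 was at -0.0012 with a pseudocount of 5, -0.10 with array weights and -0.017 with the lymphocyte and adipocyte covariates, which gave -0.048 for Cd3e. The cause was not tested.

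No paired analysis was possible because the library numbers of the columns match no label. With 4 mice per group and unknown depth, a p that misses the threshold does not show that levels were equal. Median centring moved the median of all genes by less than 0.1 on the log2 scale.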
